A study of Mus musculus with 6 samples.

Results

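Hepatic stellate cells are the retinoid-storing pericytes that wrap the sinusoids of the liver. The 3 control libraries of these cells, out of 6 libraries in the study, were chosen by their label, the solvent DMSO. They describe cultured cells given the solvent alone. All 6 libraries were of primary wild-type cells from C57BL/6JBomTac mice, harvested 2 days after isolation, and polyadenylated RNA was sequenced. The DMSO cells had received the solvent for 3 h. The other 3 libraries received 5 µM forskolin and are not compared here. The control libraries are named A, B and C as in the labels, which do not say whether a letter stands for 1 animal, a pool or a separate isolation. The spread given below therefore measures these samples and may be technical.

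Stellate cells in a healthy liver hold retinyl esters in lipid droplets, secrete little fibrillar collagen and lay down the thin matrix of the space of Disse. In injury, and on stiff culture plastic, they lose the droplets and turn into contractile myofibroblasts that make alpha-smooth muscle actin and type I collagen. Cells in early culture stand between these states. This is why the receptors, transcription factors and matrix genes they express are of use in reading any later treatment.

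The sex given in the labels did not match the libraries. The mice are described as female, yet 4 of 4 Y-linked genes tested were expressed in all 3 libraries. Ddx3y, an RNA helicase encoded on the Y chromosome, stood at 71.2, 78.5 and 69.1 TPM in A, B and C. Eif2s3y, a translation initiation factor subunit, stood at 47.7, 60.3 and 68.8 TPM. The demethylase genes Kdm5d (13.8 ± 3.69 TPM, SD, n = 3) and Uty (11.7 ± 1.98 TPM) were lower. Xist, the RNA that coats the inactive X chromosome of females, had 0, 16.5 and 0 counts, although its transcript is listed with 17911 bases. TPM is a count divided by the transcript length and scaled so that every library has the same sum, and is used wherever genes are set beside each other. All libraries are therefore described as mouse stellate cells with no sex stated.

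The libraries differed in depth, with 6753745.5, 9454832.5 and 3025989.5 counts in A, B and C. A gene at 0 may thus reach 0.444 CPM in A, 0.317 in B and 0.991 in C, which is what 3 counts allow. CPM is a count scaled to the column total, with no regard to length. Across genes, log2(CPM + 1) correlated at 0.991 between A and B, 0.975 between A and C and 0.975 between B and C, a description over genes that are not independent replicates. As a check for a library deposited in duplicate, chi-square per degree of freedom was 5.94, 10.7 and 13.4 for the pairs A-B, A-C and B-C. It weighs counting error only, and does not show that the libraries are separate cultures. The common biological coefficient of variation was 0.210, and 0.118 without C. Library C thus stood apart, and levels are given library by library wherever C differs. With 3 libraries of 1 group an exact sign test cannot go below p = 0.25, so no test is reported and neighbouring levels are compared by whether their order was the same in every library.

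Counts grew less than depth in densely covered genes. Genes were classed by counts per base only if they averaged 30 counts or more. The sparsest class thus holds long transcripts, and length was not separated from coverage. Column totals of B and C differed by a factor of 3.12, but the median gene with 0.02 or fewer counts per base differed by 3.92 and the median of the 43 genes with over 2 and up to 3 counts per base by 2.03. For B and A the column totals differed by a factor of 1.40, and the same medians were 1.56 and 1.21. The highest value of any gene was 5.65 counts per base in A, 6.60 in B and 3.91 in C. The median densely covered gene thus had a higher CPM in C, the shallowest library, and a lower one in B, though single genes such as Ankrd1 were lowest in C. The part of depth in this trend was not tested, and the values of C for the most abundant genes are to be read beside it.

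**Figure D1:**
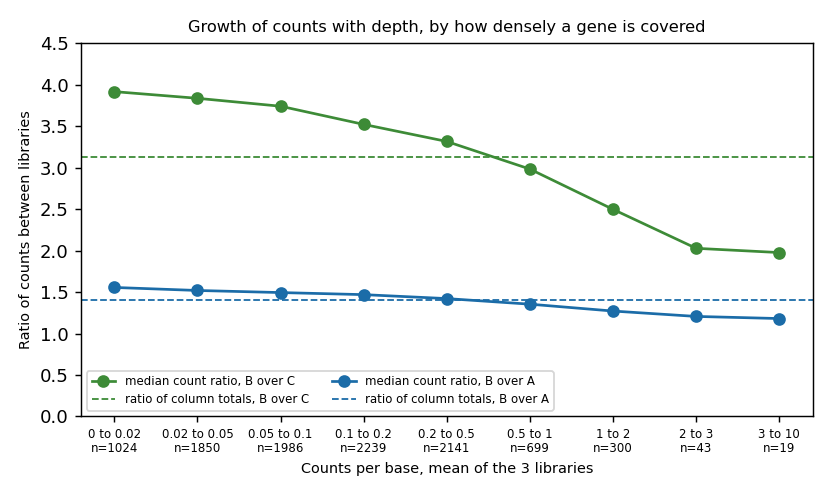
Median ratio of counts between libraries (vertical axis, linear, from 0) against counts per base averaged over the 3 DMSO libraries (horizontal axis, classes with the number of genes in each); points are medians over genes and dashed lines the ratios of column totals. The ratio of B over C declines from 3.92 to 1.98 and that of B over A from 1.56 to 1.18, where the last class holds only 19 genes. Only genes averaging 30 counts or more are included.

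The cells expressed 11315 of the 24940 genes listed (45.4%) at 1 TPM or more in all 3 libraries, and 10743 of these were protein-coding. This is the threshold for "detected" below, and counts of detected list members are to be read beside this 45.4%. No count was found in any DMSO library for 7550 of the 24940 genes, which stands beside list members without a count. Expression was spread over many genes: the 10 genes with the highest CPM held 2.42 ± 0.323% of counts (SD, n = 3) and the top 100 held 11.3 ± 1.39%. Among all genes, 9246 averaged 10 TPM or more, 2723 averaged 100 or more and 49 averaged 1000 or more, with a median of 39.7 TPM over the detected genes. The ribosomal RNA gene Rn45s took 0.446%, 0.407% and 0.700% of counts in A, B and C, the largest share in C.

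The most abundant coding transcripts were headed by Hmox1, Fth1 and Actb, and held several genes of iron, heme and stress handling. Hmox1, heme oxygenase, stood at 2319, 1935 and 3277 TPM in A, B and C. Fth1 and Ftl1, the heavy and light chains of the iron store ferritin, averaged 2478 ± 896 and 2258 ± 708 TPM (SD, n = 3). Sqstm1, the autophagy receptor p62, averaged 2204 ± 662 TPM and Txnrd1, thioredoxin reductase, 1464 ± 294 TPM. All 5 were highest in C and lowest in B. So was every other one of the 20 most abundant coding transcripts except Ctgf, which was highest in A. Chaperones (Hsp90ab1, 2189 ± 697 TPM; Hspa5, 1447 ± 308 TPM) and genes of translation (Eef1a1, Eef2, Rpl4, Rpl8, Rps2 and Rack1, between 1339 and 2114 TPM) also stood in the top 20. The glycolytic enzyme Pkm (1582 ± 443 TPM) did so as well. Ferritin, ribosomal, actin and elongation factor genes have many processed copies in the genome, so that their counts are uncertain. The other members of the top 20 were actin and its regulators (Actb, Pfn1 and Cfl1), the intermediate filament Vim, and the matricellular genes Cyr61 and Ctgf. Of noncoding genes, Malat1, a nuclear RNA, stood at 414 ± 59.7 TPM.

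Of 30 stellate marker genes, 28 were detected in all 3 libraries, against 45.4% of all genes. The list was chosen with earlier results of these data known, so this share does not test the identity of the cells. The 30 markers summed to 3551, 3468 and 3194 TPM in A, B and C. The most abundant was Cxcl12, the chemokine that retains hematopoietic and stromal cells, at 707, 637 and 451 TPM. Bmp10, a BMP ligand of endothelial receptors, stood at 639, 628 and 394 TPM. Both were lowest in C. Ecm1, a secreted protein that restrains latent TGF-beta, stood at 460, 450 and 549 TPM, and the proteoglycan Dcn at 421, 389 and 535 TPM, both highest in C. Cxcl12 was above Bmp10 in every library, while the order of Bmp10 and Ecm1 was not the same in all.

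Markers that define stellate cells in tissue were spread over a wide range. Reln, a secreted glycoprotein that marks stellate cells, stood at 149, 152 and 112 TPM. Pdgfrb, the receptor for PDGF-B and the main mitogen receptor of these cells, stood at 98.0, 102 and 50.7 TPM, lowest in C. Des, the muscle intermediate filament desmin, stood at 56.6, 70.3 and 58.6 TPM. Ngfr, the p75 neurotrophin receptor, was lower at 20.9, 27.8 and 18.9 TPM. Nes, nestin, averaged 251 ± 8.25 TPM and the lectin Fcna 219 ± 44.9 TPM (SD, n = 3).

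Hormone receptors used to define the lineage were also present. Vipr1, a receptor for vasoactive intestinal peptide on chromosome 9 (121642716 to 121672954, mm10), stood at 40.3, 48.5 and 46.1 CPM, or 22.8, 28 and 25.5 TPM. Pth1r, the parathyroid hormone receptor, stood at 41.2, 39.3 and 12.3 TPM and was lowest in C, where it had 30.5 counts. Lrat, the enzyme that esterifies retinol for storage, lies on chromosome 3 (82892582 to 82903974) and stood at 8.74, 9.41 and 11.7 CPM, or 4.53, 4.97 and 5.92 TPM. Lrat was thus detected in every library but ranked 9828 among coding genes by mean TPM. Gfap, a glial filament reported in rodent stellate cells, had 0, 17 and 0 counts, and Ntrk3, a neurotrophin receptor, had none in any library.

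**Figure D2:**
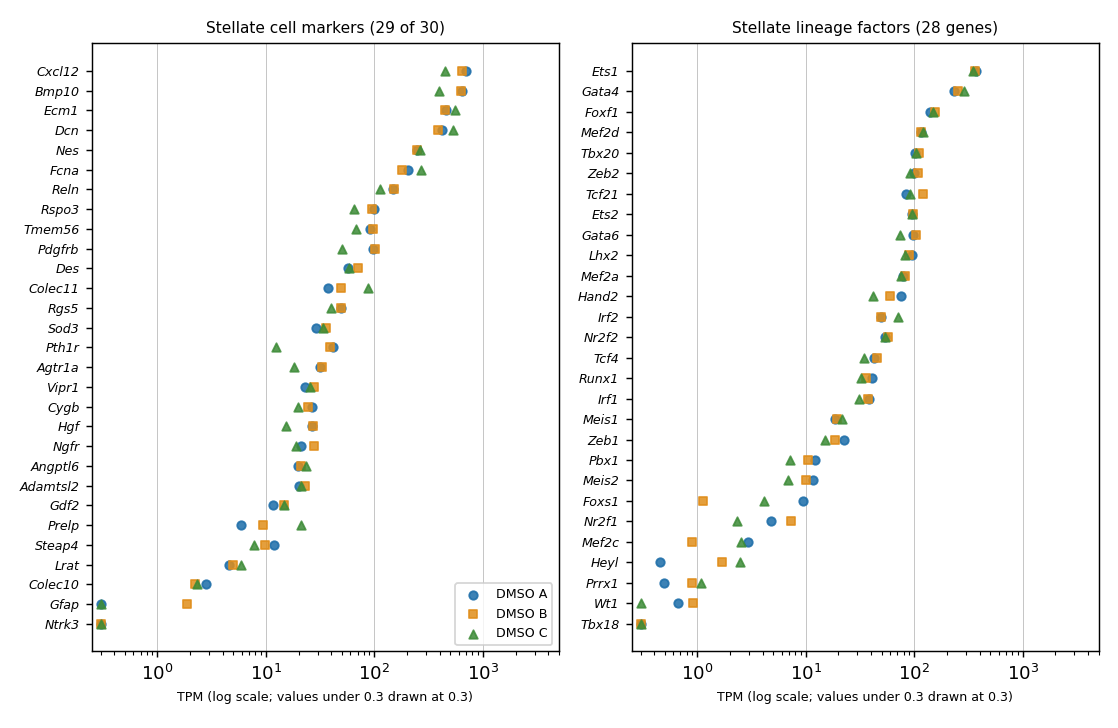
TPM (log axis) of 29 of the 30 stellate markers (left) and 28 lineage transcription factors (right) in DMSO A, B and C, 1 point per library; values under 0.3 are drawn at 0.3. Cxcl12 leads the markers and Ets1 the factors, Lrat lies near 5 TPM, and Gfap and Ntrk3 lie at or near the floor.

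Transcription factors of the stellate lineage were detected for 23 of 28 genes. Ets1, a factor of mesenchymal and endothelial cells, led them at 374, 364 and 348 TPM. Gata4, whose loss causes liver fibrosis in mouse embryos, stood at 234, 253 and 287 TPM. Foxf1, a Hedgehog-regulated mesenchymal factor, followed at 141, 157 and 151 TPM, then Mef2d at 116, 116 and 119 TPM and the T-box factor Tbx20 at 101, 112 and 104 TPM. The order from Ets1 to Tbx20 was the same in every library. Tcf21, Lhx2 and Hand2, which mark liver mesenchyme, averaged 98.9 ± 19.0, 89.1 ± 6.58 and 59.1 ± 17.2 TPM (SD, n = 3). Of the exonic bases of Hand2 19.6% overlap an antisense gene. Gata6 averaged 91.7 ± 16.4 TPM, and its order against Lhx2 was not the same in all. Wt1, the factor of the mesothelium from which stellate cells descend, was near 0 (0.666, 0.921 and 0 TPM), and Tbx18 had no count. HOX genes were detected for 9 of 39, against 45.4% of all genes, and 12 had no count, against 7550 of all 24940. They were led by Hoxb4 (28.7 ± 4.63 TPM), Hoxb2 (27.4 ± 5.35), Hoxa5 (17.1 ± 4.77) and Hoxa3 (10.2 ± 2.59). Of the exonic bases of Hoxb2, 58.5% overlap an antisense gene, so its level is uncertain without strand.

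Marker lists of other liver cells summed to low levels, with single genes such as Cd68 and Spp1 averaging above 10 TPM. In bulk RNA fewer cells of a type and less RNA per cell cannot be told apart. Hepatocyte markers summed to 18.4, 22.4 and 13.8 TPM in A, B and C with 2 of 14 detected, Alb and Apoa1. Alb, albumin, stood at 7.43, 3.72 and 6.76 TPM, and Cyp3a11, Fabp1 and Hnf4a had no count. Sinusoidal endothelial markers summed to 21.7, 36.0 and 21.7 TPM with 4 of 18 detected. These were Gpr182, Pecam1, Mmrn2 and Oit3. Pecam1, an endothelial adhesion molecule, averaged 3.49 ± 1.39 TPM (SD, n = 3), and Clec4g, Tie1, Fcgr2b and Robo4 had no count. Kupffer cell and macrophage markers summed to 43.7, 52.4 and 43.8 TPM with 3 of 16 detected. These were Cd68, Cd14 and Csf1r. Most of the sum was the lysosomal gene Cd68 (29.3 ± 1.62 TPM), while Adgre1, Timd4, Marco and Cd5l were at 0.

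The remaining types gave the same picture, apart from smooth muscle. Cholangiocyte markers summed to 26.4 ± 10.5 TPM (SD, n = 3) with 2 of 8 detected, and 18.5 ± 13.5 TPM of this came from Spp1, osteopontin, which activated stellate cells also make. Lymphocyte markers summed to 9.63 ± 6.53 TPM (1 of 12 measured genes detected), neutrophil and dendritic cell markers to 9.01 ± 7.87 TPM (0 of 11) and erythroid markers to 0.454 ± 0.786 TPM (0 of 6). Portal fibroblasts, the other collagen-making mesenchyme of the liver, had a marker sum of 16.3 ± 7.61 TPM with 1 of 12 detected (Fbln2), and Thy1, Cd34, Gli1 and Mfap4 were at 0. Mesothelial markers summed to 7.98 ± 3.90 TPM (1 of 9 measured genes). Vascular smooth muscle markers summed to 741 ± 147 TPM with 5 of 10 detected. These were Tagln, Smtn, Acta2 and Des, which stellate cells share, and Myh11 at 2.0 TPM. Cnn1, calponin of differentiated smooth muscle, had no count.

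**Figure D3:**
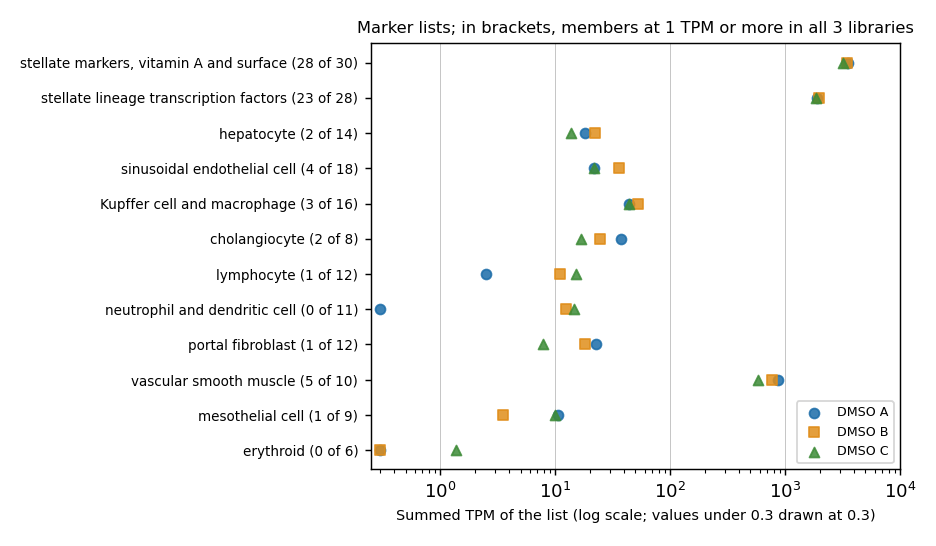
Summed TPM (log axis) of each marker list in DMSO A, B and C, 1 point per library, with the number of detected members in brackets; values under 0.3 are drawn at 0.3. The stellate lists lie at 3404 and 1903 TPM on average, while every other list except vascular smooth muscle averages under 50 TPM.

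Genes of activation were present at very unequal levels. Of the 25 activation and myofibroblast genes 24 were detected, and Aspn had no count. Vim, vimentin, led at 1468, 1247 and 1478 TPM. Thbs1, thrombospondin, which can activate latent TGF-beta, stood at 1020, 928 and 872 TPM. Both outranked the actin-binding protein Tagln (491 ± 94.2 TPM, SD, n = 3, with 55.0% of its exonic bases under an antisense gene) and the glycoprotein Tnc (283 ± 71.1 TPM), in the same order in every library. The classical myofibroblast genes lay far below. Acta2, alpha-smooth muscle actin, on chromosome 19 (34240336 to 34255373), stood at 85.7, 63.3 and 41.0 CPM, or 92.7, 69.8 and 43.2 TPM. Col1a1, the alpha-1 chain of type I collagen, on chromosome 11 (94936224 to 94953042), stood at 125, 111 and 54.9 CPM, or 58.9, 53.3 and 25.2 TPM. Acta2 was above Col1a1 per length in all 3 libraries, and both were highest in A and lowest in C. Fibronectin, Fn1 (22.4 ± 6.83 TPM), Postn (22.2 ± 11.5 TPM) and the fibroblast protease Fap (2.56 TPM) were lower still.

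Nonmuscle genes led the actin and contractile transcripts. Of 36 actin and contractile genes 31 were detected, 24 of them at 100 TPM or more on average. Actb, cytoplasmic beta-actin, stood at 2257, 1868 and 3047 TPM and the gamma-actin gene Actg1 at 646, 534 and 681 TPM. Actb exceeded Acta2 by a factor of 24.4, 26.8 and 70.5 in A, B and C, where the ratio of C holds a densely covered gene. The monomer-binding protein Pfn1 (1546 ± 332 TPM, SD, n = 3) and the filament-severing protein Cfl1 (1506 ± 322 TPM) came next. Tpm4 (1285 ± 206 TPM) and Myh9, nonmuscle myosin heavy chain (1017 ± 54.5 TPM), were also among the most abundant. Tagln and Smtn, which smooth muscle also expresses, lay above Acta2 in every library. The smooth muscle genes Myh11, Actg2 and Lmod1 averaged 2.0, 0.944 and 0.588 TPM, and the cardiac actin Actc1 had no count.

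The basement membrane list summed far above the fibrillar and beaded collagens. Its 28 members summed to 3653, 3382 and 3092 TPM in A, B and C, against 359, 350 and 193 TPM for 21 fibrillar and beaded collagens. The lists are unlike, since the first adds nidogens, laminins and Sparc to its collagens and the second holds collagen chains only. The sums did not overlap. Nid1, nidogen, the linker of laminin and type IV collagen networks, stood at 948, 881 and 1100 TPM. Col4a1, the alpha-1 chain of type IV collagen, lies on chromosome 8 (11198423 to 11312826) and stood at 1987, 1735 and 1566 CPM, or 837, 744 and 642 TPM. Sparc, a collagen-binding glycoprotein of basement membranes, stood at 686, 587 and 482 TPM, and Col4a2 at 503, 472 and 328 TPM. The order Nid1, Col4a1, Sparc, Col4a2 and Lamb1 was the same in every library. Col4a1 and Col4a2 are neighbours read in opposite directions from starts at 11312826 and 11312805, with 22 bases of overlap. Col4a1 exceeded its partner chain by a factor of 1.73 ± 0.201.

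Laminin chains were unevenly expressed. Lamb1 and Lamc1, the beta-1 and gamma-1 chains, averaged 267 ± 48.6 and 225 ± 3.41 TPM (SD, n = 3), in an order that was not the same in all libraries. The alpha chains, without which a laminin trimer is not secreted, were sparse: Lama1 averaged 5.04 ± 0.365 TPM, Lama5 3.72 ± 2.08 TPM and Lama2 0.878 TPM. Perlecan, Hspg2, averaged 18.0 ± 7.66 TPM. Col4a6 and Lamb3 had no count, and 16 of the 28 basement membrane genes were detected.

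Among fibrillar and beaded collagens 12 of 21 were detected. Col5a2, a chain that seeds type I fibrils, was the highest at 127, 136 and 59.3 TPM and lay above Col1a1 in every library. Col1a2, the partner of Col1a1, stood at 22.4, 15.2 and 9.75 TPM. Col3a1, the type III collagen chain, stood at 13.1, 6.36 and 5.91 TPM. All of these were lowest in C. Col6a2, a chain of the beaded type VI collagen (29.2 ± 3.07 TPM, SD, n = 3), and Col5a1, a type V chain (28.1 ± 8.67 TPM), lay between Col1a1 and Col1a2 on average, and the order of Col1a1, Col6a2 and Col5a1 was not the same in all. Col4a1 exceeded Col1a1 by a factor of 14.2, 14 and 25.5 in A, B and C, and Col3a1 by 63.7, 117 and 109.

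**Figure D4:**
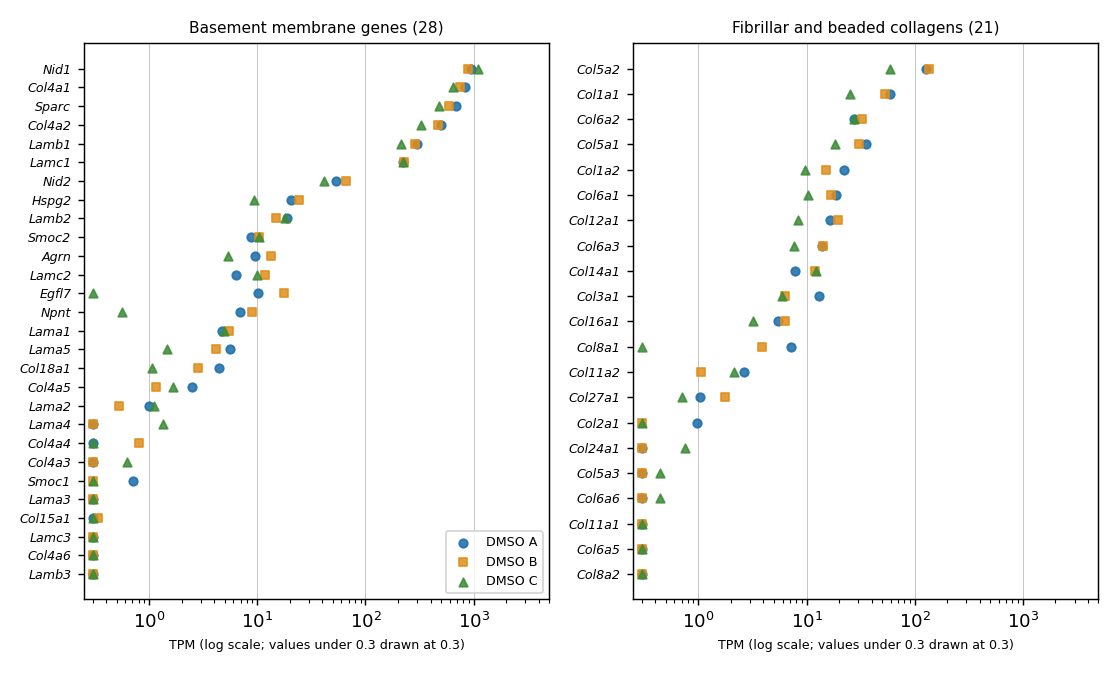
TPM (log axis) of 28 basement membrane genes (left) and 21 fibrillar and beaded collagens (right) in DMSO A, B and C, 1 point per library; values under 0.3 are drawn at 0.3. Nid1 and Col4a1 lie between 642 and 1100 TPM, while Col1a1 lies between 25.2 and 58.9 TPM with C lowest.

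Of 26 genes that fold, modify or crosslink collagen 24 were detected, with a sum of 3294 ± 86.4 TPM (SD, n = 3). This sum was led by folding and modifying genes, and lay above the 300 ± 93.5 TPM of the 21 fibrillar and beaded collagens. Serpinh1, the collagen chaperone HSP47, stood at 786, 721 and 750 TPM. P4hb, a subunit of prolyl 4-hydroxylase and a disulfide isomerase, stood at 648, 603 and 668 TPM. The prolyl isomerase Ppib averaged 477 ± 37.2 TPM, although 57.6% of its exonic bases overlap the antisense gene Snx22. Crtap, a partner of prolyl 3-hydroxylase, averaged 224 ± 19.9 TPM. The crosslinking enzyme Lox was lower, at 48.3, 43.0 and 21.1 TPM, and lay below Col1a1 in every library.

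Matrix glycoproteins were detected for 25 of 41 genes. Besides Cyr61, Ctgf and Thbs1 these were led by Ecm1 and by the proteoglycan Bgn (452 ± 22 TPM, SD, n = 3). In all, 6 members of this list had no count: Thbs4, Fbln1, Mfap4, Mfap5, Fmod and Mgp, several of which mark other fibroblasts. Among 32 proteases and inhibitors 22 were detected. Plaur, the urokinase receptor, stood at 675, 612 and 785 TPM, highest in C. Adamts1, a protease that cleaves proteoglycans, lies on chromosome 16 (85793828 to 85803113) and stood at 442, 421 and 429 CPM, or 252, 244 and 238 TPM, nearly equal in the 3 libraries. The inhibitor Timp3 stood at 230, 188 and 85.2 TPM and Timp1 at 110, 98.5 and 49.1 TPM, both lowest in C. Mmp10, stromelysin-2, averaged 133 ± 11.9 TPM, and the interstitial collagenase Mmp13 51.8 ± 7.80 TPM.

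Targets of YAP and TAZ, the coactivators that enter the nucleus on stiff substrates and bind DNA through TEAD factors, were detected for 21 of 22 genes. Cyr61 (CCN1), a matricellular protein on chromosome 3 (145646971 to 145649985), stood at 1091, 960 and 1190 CPM, or 1496, 1340 and 1590 TPM. Ctgf (CCN2), on chromosome 10 (24595442 to 24598682), stood at 1287, 1085 and 1288 CPM, or 1489, 1279 and 1451 TPM. Both were among the 20 most abundant coding transcripts, and Cyr61 was above Ctgf per length in every library. Ankrd1, a nuclear ankyrin repeat protein, stood at 1038, 902 and 802 TPM, Amotl2, a YAP-binding angiomotin, at 361, 381 and 302 TPM, and the kinase Lats2 at 336, 350 and 341 TPM. Of the exonic bases of Ctgf 22.9% overlap an antisense gene, and of those of Lats2 45.7% overlap a predicted gene on the same strand.

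The stretches upstream of 3 of these genes are shown because they hold the TEAD motif GGAATG, searched on both strands. Each line gives the 250 bases before the gene's start, from the RefSeq promoter table on GRCm38.p6 (the same coordinates as mm10), 5′ to 3′ on the gene's strand. Capitals mark the motif or its reverse complement. The regions are chr3:145649986-145650235 on the minus strand, chr19:36119845-36120094 on the minus strand and chr9:102717554-102717803 on the plus strand.
Cyr61: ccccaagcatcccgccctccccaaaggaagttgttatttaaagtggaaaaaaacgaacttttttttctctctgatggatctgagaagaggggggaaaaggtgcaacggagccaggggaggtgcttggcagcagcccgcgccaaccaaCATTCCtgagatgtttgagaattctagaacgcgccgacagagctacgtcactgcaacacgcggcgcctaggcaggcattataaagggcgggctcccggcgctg
Ankrd1: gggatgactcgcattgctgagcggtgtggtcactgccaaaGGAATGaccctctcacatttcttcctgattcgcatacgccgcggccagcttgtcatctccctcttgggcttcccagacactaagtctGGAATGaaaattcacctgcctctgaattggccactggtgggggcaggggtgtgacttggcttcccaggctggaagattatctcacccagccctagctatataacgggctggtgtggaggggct
Amotl2: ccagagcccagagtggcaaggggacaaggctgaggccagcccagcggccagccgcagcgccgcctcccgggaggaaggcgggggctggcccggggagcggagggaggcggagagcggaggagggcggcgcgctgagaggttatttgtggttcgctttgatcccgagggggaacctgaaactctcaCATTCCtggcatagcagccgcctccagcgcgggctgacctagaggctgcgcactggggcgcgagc
The match begins at base -103 in Cyr61 and -65 in Amotl2, counted back from the start, and the 2 matches in Ankrd1 begin at -210 and -123. Of the 16 genes of the list with an entry in that table, 7 (43.8%) held the motif, against 12.6% of all 32851 promoters of that length. Among promoters of detected genes the share was 10.7%. The 7 were Cyr61, Ankrd1, Amotl2, Ajuba, Axl, Crim1 and Ptpn14. The list holds targets of coactivators that act through TEAD, so a higher share of this motif is no separate result. A match is a description of letters and not evidence of binding.

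Transcripts of the TEAD factors and their coactivators were present too, with 19 of 20 genes of the Hippo, TEAD and SRF group detected. Yap1 stood at 167, 154 and 138 TPM and Wwtr1, which encodes TAZ, at 156, 167 and 119 TPM. Tead1 averaged 124 ± 22.8 TPM (SD, n = 3), above Tead2 (14.4 ± 1.34 TPM), Tead3 (13.5 ± 3.27 TPM) and Tead4 (10.7 ± 4.92 TPM). The cofactor Vgll3 averaged 141 ± 33.7 TPM. Srf, the factor that drives actin genes with the coactivators Mkl1 and Mkl2, averaged 105 ± 8.23 TPM, and Myocd, its smooth muscle coactivator, was near 0 at 0.134 TPM.

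Immediate-early and AP-1 factors were abundant at this time, with 20 of 22 detected and 13 at 100 TPM or more on average. Fosl1, the FOS-family member FRA1, stood at 675, 681 and 858 TPM, but 62.4% of its exonic bases overlap the antisense gene Ccdc85b (231 TPM), and its level is uncertain. Klf6, a zinc finger factor cloned from activated stellate cells, stood at 625, 604 and 710 TPM. Ier3 and Junb averaged 521 ± 14.5 and 387 ± 15.6 TPM (SD, n = 3). These 4 had the same order in every library. Fos itself stood at only 29.8, 18.5 and 22.9 TPM, while Jun averaged 257 ± 9.78 TPM, Atf3 113 ± 0.905 TPM and Egr1 169 ± 11.9 TPM. Among 21 Krüppel-like and SP factors 16 were detected, and after Klf6 came Sp3 (110 ± 11.6 TPM), Klf3 (107 ± 12.6 TPM) and Klf4 (87.6 ± 22.3 TPM).

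Nuclear receptors were detected for 25 of 48 genes, against 45.4% of all genes. Nr1d1, the heme-binding clock repressor REV-ERB alpha, stood at 185, 191 and 189 TPM. Ppard, a lipid-sensing receptor, stood at 168, 170 and 157 TPM, Nr1h2, the oxysterol receptor LXR beta, at 158, 165 and 152 TPM, and their partner Rxra at 133, 126 and 111 TPM. The order of these 4 was the same in every library. The glucocorticoid receptor Nr3c1 averaged 115 ± 10.5 TPM (SD, n = 3). Among retinoic acid receptors Rarg averaged 60.9 ± 12.1 TPM, Rara 44.0 ± 3.39 TPM and Rarb 13.2 ± 2.14 TPM, although 52.9% of the exonic bases of Rarb overlap Top2b. The bile acid receptor Nr1h4 was detected, at 27.5 ± 3.06 TPM. Pparg had 0, 0 and 3 counts, and Vdr, the vitamin D receptor, averaged 0.232 TPM. The hepatocyte receptor Hnf4a had no count.

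Receptors that raise cAMP through the G protein Gs were detected for 10 of 42 genes of this list, against 45.4% of all genes. No count was found for 14 of the 42, against 7550 of all 24940 genes. Calcrl, the receptor chain for CGRP and adrenomedullin, led at 213, 197 and 181 TPM. Its accessory chain Ramp2, which gives it specificity for adrenomedullin, stood at 49.0, 26.7 and 31.4 TPM. Adora2a, an adenosine receptor, stood at 32.1, 47.7 and 31.9 TPM. Calcrl was above Adora2a in every library, whereas the orders of Adora2a, Ramp2, Pth1r and Vipr1 were not the same in all. The prostaglandin E2 receptors Ptger2 (21.5, 27.5 and 7.70 TPM) and Ptger4 (12.2, 16.8 and 12.2 TPM) and Glp2r (13.3, 12.4 and 18.9 TPM), a gut hormone receptor, were lower. The glucagon receptor Gcgr, Glp1r, Gipr and the bile acid receptor Gpbar1 had no count in any library.

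Receptors that signal through Gq, Gi or G12 were detected for 16 of 56 genes, against 45.4% of all genes, and 15 had no count, against 7550 of all 24940. F2r, the thrombin receptor PAR1, stood at 212, 200 and 154 TPM and lay above the rest in every library. Ednrb, the endothelin B receptor, stood at 116, 120 and 108 TPM, the sphingosine-1-phosphate receptor S1pr3 at 119, 116 and 85.1 TPM and the serotonin receptor Htr2a at 114, 105 and 97.2 TPM. The order of these 3 was not the same in all. Ednrb exceeded the endothelin A receptor Ednra by a factor of 7.23, 6.37 and 10.4. The angiotensin receptor Agtr1a, a drug target in fibrosis models, averaged 27.6 ± 8.22 TPM (SD, n = 3). Agtr2, Avpr1a and Oxtr had no count.

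Receptor tyrosine kinases were detected for 23 of 51 genes, against 45.4% of all genes. Epha2, an ephrin receptor, stood at 336, 348 and 377 TPM and Axl, the receptor for Gas6, at 393, 367 and 242 TPM, in an order that was not the same in all libraries. Fgfr1 followed at 294, 288 and 232 TPM and Ryk, a Wnt receptor, at 151, 144 and 109 TPM. Pdgfra (99.1, 92.2 and 55.9 TPM) and Pdgfrb were near equal, with a ratio of Pdgfrb to Pdgfra of 0.999 ± 0.0975 (SD, n = 3). The collagen receptor Ddr2 averaged 60.8 ± 20.6 TPM and Egfr 56.3 ± 12.7 TPM. Met, the receptor of the growth factor Hgf that stellate cells secrete, was near 0 (1.55, 0.991 and 0 TPM), and the endothelial receptors Kdr and Tie1 averaged 0.220 and 0 TPM.

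**Figure D5:**
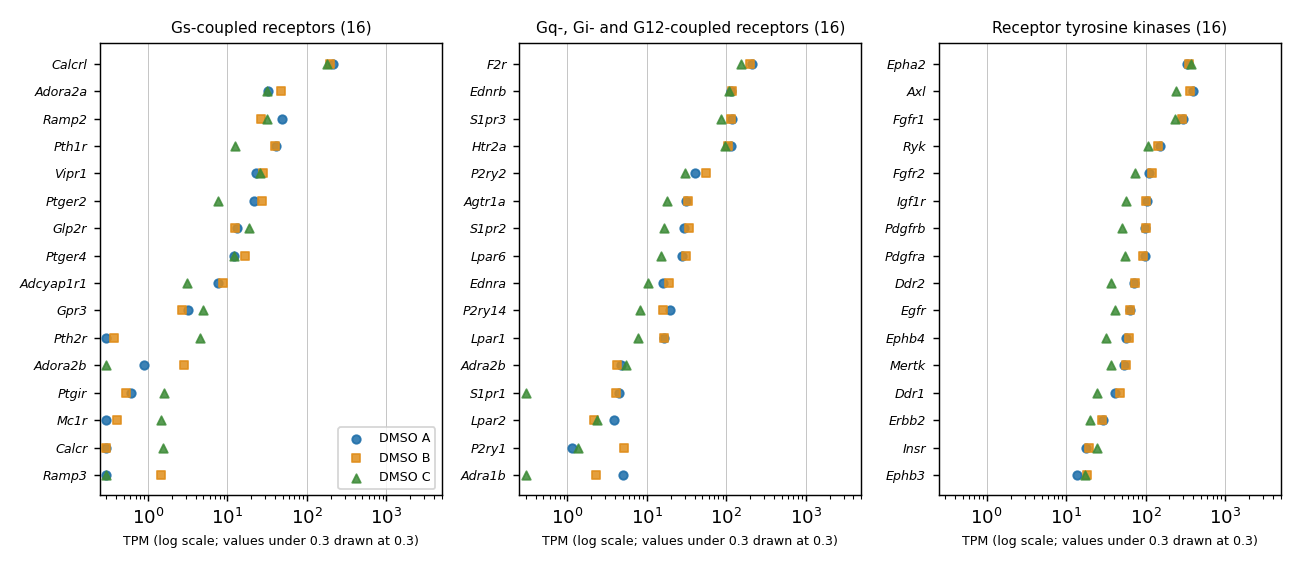
TPM (log axis) of 16 of the most abundant genes of each receptor list, Gs-coupled (left), Gq-, Gi- and G12-coupled (middle) and tyrosine kinases (right), in DMSO A, B and C, 1 point per library; values under 0.3 are drawn at 0.3. Calcrl, F2r and Epha2 lead the 3 lists on average, while Axl lies above Epha2 in A and B.

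Of 46 genes of TGF-beta and BMP signalling 34 were detected. Among ligands, Bmp10 led (554 ± 138 TPM, SD, n = 3), followed by Tgfb1 (167 ± 11.3 TPM), the activin chain Inhba (115 ± 40.2 TPM) and Bmp5 (76.9 ± 18.8 TPM). Of the exonic bases of Bmp5 49.1% overlap an antisense gene, so its level is uncertain without strand. Gdf2, which encodes BMP9, the relative of BMP10 that binds the same receptors, averaged 13.7 ± 1.73 TPM, and Bmp10 exceeded it by a factor of 54.7, 43.2 and 26.6 in A, B and C. Among receptors, the coreceptor Eng stood at 370, 379 and 332 TPM, Acvr1 at 103, 109 and 89.4 TPM, Tgfbr2 at 73.5, 80.2 and 72.2 TPM and Tgfbr1 at 48.3, 58.8 and 38.9 TPM. Among inhibitors, Smad7 stood at 203, 232 and 307 TPM, highest in C, and Ski at 201, 194 and 190 TPM. The BMP target genes Id2 (43.3 ± 9.89 TPM), Id3 (40.9 ± 1.22 TPM) and Id1 (15.7, 2.73 and 12 TPM) were lower than the ligand Bmp10.

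The region upstream of Bmp10 is shown because it holds 2 copies of AGATAA, a motif of GATA factors, and Gata4 and Gata6 were both expressed. It is chr6:87428744-87428993 on the plus strand of GRCm38.p6, 250 bases before the start, with the motif in capitals.
Bmp10: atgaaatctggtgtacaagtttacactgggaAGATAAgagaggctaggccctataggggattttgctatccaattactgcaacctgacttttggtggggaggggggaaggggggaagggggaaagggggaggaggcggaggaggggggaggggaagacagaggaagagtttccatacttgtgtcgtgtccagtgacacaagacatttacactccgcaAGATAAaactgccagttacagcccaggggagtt
The copies begin at -219 and -33. Of 21 stellate markers with an entry in the table, 4 (19.0%) held this motif on either strand, against 9.99% of all promoters. These were Colec11, Gdf2, Bmp10 and Rgs5. Among promoters of detected genes the share was 5.67%. With 4 matches, no more than the sequence is stated.

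Secreted growth factors and cytokines were detected for 27 of 53 genes. After Cxcl12 came Csf1, the macrophage growth factor, at 630, 601 and 404 TPM, and Ereg, an EGF-receptor ligand, at 326, 350 and 336 TPM. Vegfa (133, 137 and 153 TPM) and Vegfc (156, 169 and 97.0 TPM), which act on blood and lymph vessels, were similar on average and their order was not the same in all libraries. Hgf, the hepatocyte mitogen, averaged 23.0 ± 6.66 TPM and Rspo3, a Wnt enhancer of the central vein niche, 86.7 ± 18.7 TPM (SD, n = 3). Pdgfb, Il1a and Il1b had no count. Of 26 integrins 12 were detected, led by Itgb1 (774, 717 and 925 TPM), Itgav (217, 233 and 192 TPM), Itgb5 (65.6 ± 13.8 TPM) and Itga9 (64.9 ± 16.8 TPM). These are the shared beta-1 chain and the alpha-v chain that activates latent TGF-beta with several beta chains.

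Genes of retinoid and lipid storage were detected for 18 of 33. Plin2, the coat protein of lipid droplets, stood at 443, 433 and 433 TPM, almost equal in the 3 libraries. Bco1, the enzyme that cleaves beta-carotene to retinal, stood at 284, 242 and 146 TPM, and the retinal reductase Rdh11 at 126, 97.9 and 79.3 TPM. The triglyceride lipase Pnpla2 averaged 96.5 ± 4.93 TPM (SD, n = 3). Plin2 exceeded Lrat by a factor of 97.9, 87.1 and 73.2. Stra6, a retinol uptake receptor, had no count.

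Proliferation genes were detected for 18 of 25, with those of DNA replication and cyclin D at the top. Pcna, the DNA polymerase clamp, stood at 452, 398 and 603 TPM and Ccnd2, cyclin D2, at 280, 284 and 183 TPM. The replication helicase subunits Mcm2 and Mcm3 averaged 88.7 ± 15.0 and 76.2 ± 6.5 TPM (SD, n = 3). The mitotic genes Mki67 (1.55, 1.84 and 0.266 TPM), Top2a (1.46 ± 0.553 TPM) and Cdk1 (2.55 TPM) were near the detection threshold, while the mitotic cyclin Ccnb2 averaged 19.5 ± 1.96 TPM.

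Library C read lower than A and B for most genes and by different amounts for the gene lists. Over the 10402 genes with 10 or more counts in each library, the median log2 ratio of C to the mean of A and B was -0.13, and 53.7% were lowest in C. The ratio was -0.75 for the activation list, with 18 of 22 counted members lowest in C, and -0.85 for fibrillar collagens, with 9 of 12 lowest. Both lists hold Col1a1, Col1a2 and Col3a1. For Gq-, Gi- and G12-coupled receptors it was -0.70, with 12 of 14 lowest. It was -0.59 for the vascular smooth muscle markers (3 of 4 lowest), -0.58 for growth factors and cytokines (15 of 22), -0.56 for receptor tyrosine kinases (16 of 23) and -0.52 for matrix proteases and inhibitors (15 of 20). These values describe 1 library, and no difference between lists was tested. Stellate markers (-0.11) and lineage factors (-0.13) stood near the value of all genes. When libraries were scaled on genes with under 0.1 counts per base, the median of all genes was 0.00, and the activation and fibrillar lists stood at -0.63 and -0.72. C was also the shallowest library, and the part of depth in these values was not tested.

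The 10 genes that varied most among the libraries, of those with 20 CPM or more on average, were all lowest in C. Ccnd1, cyclin D1, stood at 29.8, 39.2 and 5.95 CPM, and 21.9% of its exonic bases overlap an antisense gene. S100a6, a calcium-binding protein of activated cells, stood at 29.2, 31.4 and 6.11 CPM, the matrix protein Fbln2 at 30.4, 23.7 and 6.11 CPM and Nppb, the natriuretic peptide BNP, at 38.5, 18.2 and 7.93 CPM. The other 6 were Cd99l2, Mvb12b, Dhrs7b, Podxl, Mrvi1 and Agfg2, with 5.95 to 11.9 CPM in C. All 10 were chosen for this spread, which is a description. Over the lists as a whole, 213 of 464 pairs of neighbours in the order of TPM kept that order in every library, so most adjacent ranks are not separated by these data.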

How the data were processed

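Polyadenylated RNA of 6 libraries was sequenced, and the 3 DMSO libraries are described. The library kit named in the labels' protocols keeps no strand information. STAR, the HOMER suite and the mm10 build are named in the submitters' processing notes. Their settings, the counting rule, the treatment of duplicates and the annotation release were not given in the sources used here. Expected counts over exons, in steps of 0.5, were deposited by the authors with 1 RefSeq transcript and its length for each of 24940 gene symbols. The table was read as deposited, and 0 library columns lacked a sample.

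CPM is a count over the column total, and TPM was computed from the deposited lengths with Python 3.11.15 (numpy 2.4.6, pandas 2.3.3). A gene was called detected at 1 TPM in all 3 libraries. The floor of 3 counts allows for counting error alone, because the reads carry no molecular identifiers and are not independent molecules. Counts were rounded for edgeR 4.0.16 and DESeq2 1.42.0 (R 4.3.3). EdgeR gave TMM factors and the coefficient of variation (genes with 1 CPM in at least 2 libraries), which was tested on simulated data, and DESeq2 gave size factors as an alternative. Exon overlaps of 10% or more were read from a GENCODE annotation of GRCm38.p6, and 24772 RefSeq identifiers matched a GRCm38.p6 gene table. Such an overlap was found for 68 of 835 genes looked up, and only some are given in the text.

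The members and the 34 gene lists were chosen with earlier results of these data known. Named genes are the 4 highest of each list, the 20 highest coding genes, 20 chosen stellate and activation genes, list members at 0, and the 10 most variable genes. For the marker lists of other liver cells fewer than 4 were often named. Other list members in the text, and Malat1, were named after their values were seen. Scaling, length, detection threshold, filter and each library left out in turn were varied. A few list members count in the lists but are not reported here by name.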

Additional observations from a re-analysis of the deposited data

How the results depend on the processing

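Leaving out 1 library gave a coefficient of variation between 0.118 (without C) and 0.227, so the spread rests on C. It was 0.217 with library sizes alone, 0.262 without the filter and 0.163 for genes at 10 CPM or more on average. Detected genes numbered between 9600 (5 TPM in all 3 libraries) and 13357 (1 TPM on average). With lengths shortened by 200 bases the sum of basement membrane genes was 3084 TPM, 9 of 34 list sums moved by more than 1 SD, and of 20 single genes checked only Adamts1 did, to 223 TPM. Other scalings used TMM factors, DESeq2 size factors or genes with under 0.1 counts per base, the last chosen after seeing the data. They moved none of the 34 mean sums and 20 mean gene levels by more than 1 SD. The factors were centred on 1 over the 3 libraries, so these means could hardly move and the outcome was nearly fixed. In the order of CPM, 198 pairs of neighbours kept their order in every library, against 213 by TPM. No paired analysis was possible because only 1 group is described and no test was made. Depth limits the low genes most in C, where 3 counts are 0.991 CPM.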
